A study of Mus musculus with 5 samples.

Results

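The transforming growth factor-beta (TGF-beta) genes described here are the 3 ligands Tgfb1, Tgfb2 and Tgfb3, the receptors Tgfbr1, Tgfbr2 and Tgfbr3, the latent TGF-beta binding proteins Ltbp1, Ltbp3 and Ltbp4, and the inhibitory SMAD Smad7. They were taken by gene symbol, and all 10 were found among the 31053 genes of the count matrices. Counts are unique molecular identifiers (UMIs) from droplet single-cell RNA sequencing of mouse hearts that reads the 5′ end of transcripts. The control group was 4 mice of genotype Ctla4+/+Pdcd1-/- in 2 libraries (replicates 1 and 2). The disease group was 10 mice of genotype Ctla4+/-Pdcd1-/- in 3 libraries (replicates 3, 4 and 5), a model of the myocarditis that immune checkpoint inhibitors can cause. Every mouse of both groups lacked Pdcd1, so neither group is wild type, and the ages of the mice and how many fed each library are not given in the sources used here. Hearts were digested with collagenase I, DNase I and hyaluronidase and pooled, and live nucleated cells (positive for the DNA dye DRAQ5, negative for DAPI) were sorted. Because hearts were pooled, the library was the replicate, and p-values measure only the spread between libraries.

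TGF-beta ligands are secreted as latent complexes, in which a propeptide holds the ligand inactive and a latent TGF-beta binding protein tethers it to the extracellular matrix until integrins, proteases or other factors release it. Free ligand binds the type II receptor Tgfbr2, which recruits and phosphorylates the type I receptor Tgfbr1. Tgfbr3 (betaglycan) presents ligand to them, TGF-beta2 above all. The active type I receptor phosphorylates Smad2 and Smad3, and Smad7, itself induced by the signal, binds the receptor and limits it. In the heart the pathway is known for its part in fibroblast activation and scar formation, in valve and endocardial development, and in restraining T cells.

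The matrices held 47319 barcodes and between 24991704 and 55053988 UMIs per library, and 36974 cells were kept, with a median of 3330 to 4533 UMIs per cell. Cells were assigned to lineages by marker UMIs, none of which came from the genes described here, and 35546 cells (96.1%) received a lineage. Endothelial cells (14160), fibroblasts (10794), macrophages with monocytes (4719), T cells (3767) and B cells (1161) had at least 50 cells in every library and were tested. Mural, Schwann, lymphatic endothelial, neutrophil, natural killer, dendritic and mesothelial cells (35 to 269 cells each) were described without a test. Disease replicate 4 stood apart by its T cells, which were 24.7% of its cells against 1.75% to 8.01% elsewhere. Control replicate 2 and disease replicate 3 held only 96 and 137 T cells. Any 2 libraries shared 86 to 161 barcodes, at most 1.90% of the smaller library. The 2 targeted genes did not check the labels: Ctla4 in T cells was at 426, 74.4, 147, 646 and 541 counts per 1e6 UMIs (CPM) in replicates 1 to 5, and transcripts of the deleted gene Pdcd1 were still counted, at 88.7 to 1056 CPM. Levels below are CPM of the summed UMIs of a lineage in a library, given in the order control replicate 1, control replicate 2, disease replicate 3, 4 and 5. Since a read at the 5′ end counts a molecule once whatever its length, CPM needed no correction for gene length.

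Tgfb1 (ENSMUSG00000002603) was highest in immune and endothelial cells. Among the tested lineages its mean was highest in B cells (186 ± 162 CPM, SD, n = 5 libraries) and macrophages (163 ± 57.2), then T cells (110 ± 36.7) and endothelial cells (97.6 ± 34.2). The B cell mean rested on control replicate 2 (475 CPM), since the other 4 libraries were at 99.5 to 138 CPM, and B cells were above macrophages in only 1 of 5 libraries. The ranges of these 4 lineages overlapped from one to the next, and the means of the 129 natural killer cells (174 ± 118), 77 dendritic cells (167 ± 169) and 68 lymphatic endothelial cells (118 ± 61.1) lay among them. Fibroblasts were lower, at 43.0 ± 8.80 CPM, and below endothelial cells in all 5 libraries with no overlap. Mural cells (34.5 CPM) and Schwann cells (19.2 CPM) were at or below the fibroblast level.

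Tgfb2 (ENSMUSG00000039239) and Tgfb3 (ENSMUSG00000021253) had the opposite distribution. Tgfb2 was at 55.5 to 72.0 CPM in fibroblasts, 11.6 to 20.5 CPM in endothelial cells and at most 5.36 CPM in macrophages. Only 15 Tgfb2 UMIs were counted in all T cells and 4 in all B cells. Tgfb3 was at 54.1 to 74.0 CPM in fibroblasts and 31.0 to 101 CPM in mural cells, against 12.02 to 18.6 CPM in endothelial cells and at most 8.34 CPM in the 3 immune lineages. The 68 lymphatic endothelial cells had Tgfb2 at 22.3 to 161 CPM and Tgfb3 at 60.5 to 129 CPM, ranges that overlapped those of fibroblasts.

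The promoters of the broad ligand and of the restricted one also differ in sequence, and both are shown for that contrast. The RefSeq table (GRCm38.p6) held windows for 7 of the 10 genes. Each sequence below is the 250 bases before the annotated start, 5′ to 3′ on the gene's strand. Capitals mark exact matches on either strand to 4 motifs that do not overlap each other here. The GC box was searched as GGGCGG. The letters of the TATA box were TATAAA. For the CCAAT box they were those of its name. The E-box was searched as CACGTG. Tgfb1 lies on the plus strand (chr7:25686752-25687001) and Tgfb2 on the minus strand (chr1:186705990-186706239).
Tgfb1: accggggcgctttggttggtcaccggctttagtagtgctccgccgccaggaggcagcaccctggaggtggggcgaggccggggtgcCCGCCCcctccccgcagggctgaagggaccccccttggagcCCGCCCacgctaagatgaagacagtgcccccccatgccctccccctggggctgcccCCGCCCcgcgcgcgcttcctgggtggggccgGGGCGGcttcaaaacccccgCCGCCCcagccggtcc
Tgfb2: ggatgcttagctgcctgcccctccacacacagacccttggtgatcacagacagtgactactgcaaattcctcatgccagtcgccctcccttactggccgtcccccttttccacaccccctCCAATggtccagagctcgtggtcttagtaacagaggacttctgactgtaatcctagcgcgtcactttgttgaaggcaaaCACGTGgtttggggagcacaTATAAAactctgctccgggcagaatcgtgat
The Tgfb1 window was 75.2% G and C, above 96.1% of the 32851 windows in the table, and held 5 GC boxes and none of the other motifs. The Tgfb2 window was 53.6% G and C, near the median window (52.4%), and held no GC box but 1 TATA box starting 31 bases before the start site, 1 E-box and 1 CCAAT box. Of all windows 32.7% held a GC box, 12.4% a TATA box, 33.8% a CCAAT box and 6.02% an E-box. A match is a description of the letters and not a measured binding site.

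The receptors were more widely shared. Tgfbr2 (ENSMUSG00000032440) was detected in every lineage with over 50 cells, with means of 135 CPM in fibroblasts, 128 in macrophages, 96.4 in T cells, 88.5 in B cells and 63.3 in endothelial cells. Neighbours in that order overlapped. The 68 lymphatic endothelial cells were far above the tested lineages, at 565, 821, 302, 327 and 388 CPM, with 172 UMIs in all, and the lowest of these exceeded the highest fibroblast library (175 CPM). Tgfbr1 (ENSMUSG00000007613), the signalling type I receptor, was highest among the tested lineages in macrophages (48.6 to 85.8 CPM), followed by fibroblasts (34.0 to 54.8 CPM), and was at 14.0 to 22.1 CPM in endothelial cells. Tgfbr3 (ENSMUSG00000029287) was a stromal gene, at 136 to 190.0 CPM in fibroblasts, 126 to 155 CPM in lymphatic endothelial cells, 30.5 to 44.0 CPM in other endothelial cells and at most 16.8 CPM in the 3 immune lineages. Macrophages, with the most Tgfbr1 of the 5 tested lineages, had the lowest mean Tgfbr3 of the 5 (1.16 to 5.78 CPM).

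Among the 5 tested lineages the latency genes were highest in fibroblasts, and Ltbp4 was abundant in endothelial cells as well. Ltbp4 (ENSMUSG00000040488), which also organises elastic fibres, was the most abundant of the 10 genes, at 1035, 1145, 1072, 947 and 1144 CPM in fibroblasts and at 424, 453, 443, 437 and 533 CPM in endothelial cells. It was at 780 to 2718 CPM in lymphatic endothelial cells, 208 to 429 CPM in Schwann cells and 208 to 363 CPM in mural cells. Ltbp1 (ENSMUSG00000001870) was at 69.5 to 85.8 CPM in fibroblasts and 19.4 to 28.6 CPM in endothelial cells. Ltbp3 (ENSMUSG00000024940) was at 65.5 to 84.8 CPM in fibroblasts and 6.05 to 9.12 CPM in endothelial cells. In macrophages, T cells and B cells Ltbp1 and Ltbp3 did not exceed 7.05 CPM in any library.

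Smad7 (ENSMUSG00000025880) did not follow the ligands or the latency proteins. Among the tested lineages its mean was highest in T cells, at 76.8, 374, 74.3, 84.5 and 85.0 CPM, and lowest in macrophages, at 10.1, 25.2, 12.7, 12.5 and 17.0 CPM. Endothelial cells (55.3 to 123 CPM) and fibroblasts (40.6 to 86.4 CPM) lay between. The 4 T cell libraries other than control replicate 2 lay within the endothelial range.

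**Figure D1:**
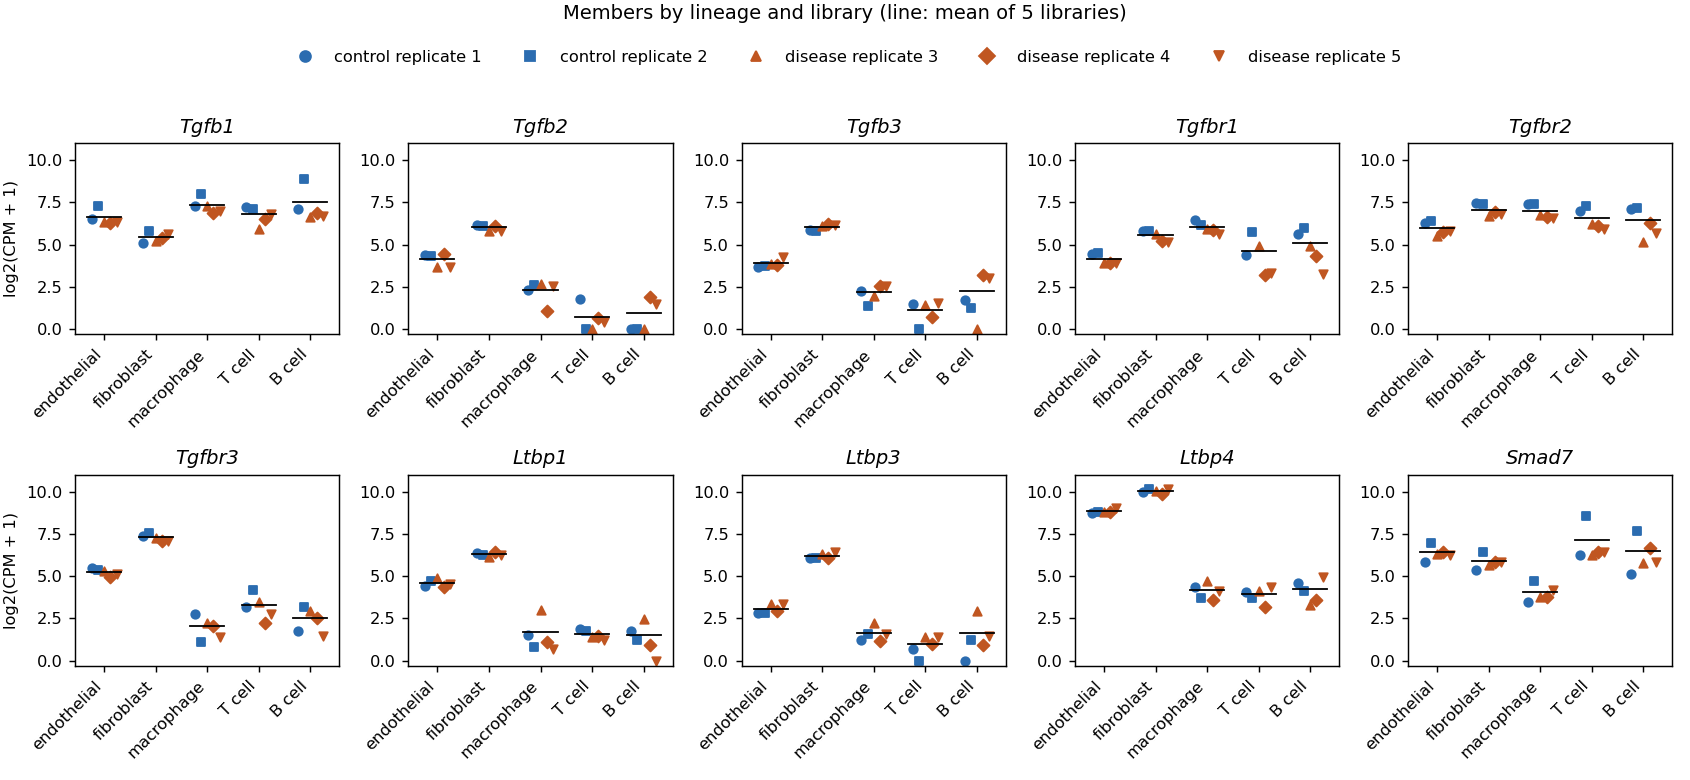
Level of the 10 genes in the 5 tested lineages as log2(CPM + 1), 1 symbol per library with controls in blue and disease libraries in orange, and a line at the mean CPM of the 5 libraries. Tgfb2, Tgfb3, Tgfbr3 and the 3 latency genes are high in fibroblasts, intermediate in endothelial cells and lowest by their means in immune cells, while Tgfbr2 is detected in every library of all 5 lineages, from 35.4 to 175 CPM.

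The lineages were compared in 1 model of the summed counts with library as a block, each lineage against the unweighted mean of the other 4 (edgeR's quasi-likelihood test, Benjamini-Hochberg adjustment over 13809 genes). In fibroblasts 8 genes were higher and 1 was lower. The log2 differences were 4.75 ± 0.11 (SE) for Ltbp3, 4.65 ± 0.11 for Ltbp4, 4.29 ± 0.20 for Tgfb2, 4.27 ± 0.18 for Ltbp1, 4.05 ± 0.13 for Tgfbr3 and 3.76 ± 0.14 for Tgfb3. Tgfbr1 (0.51 ± 0.14) and Tgfbr2 (0.39 ± 0.09) were higher by less, and Tgfb1 was lower (-1.80 ± 0.17). Of all genes 39.7% were called higher in fibroblasts and 34.3% lower, so a call by itself was common and the size of the difference carries the description. In endothelial cells 6 genes were higher, from Ltbp4 (2.95 ± 0.11) to Ltbp3 (0.44 ± 0.18, not called without control replicate 1, control replicate 2 or disease replicate 4, with adjusted p of 0.0546 to 0.116), and 3 were lower, namely Tgfb1 (-0.56 ± 0.16), Tgfbr2 (-1.15 ± 0.10) and Tgfbr1 (-1.45 ± 0.17), where 35.7% and 33.7% of all genes were called.

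Macrophages were higher in 3 genes, Tgfbr1 (1.54 ± 0.14), Tgfb1 (0.90 ± 0.14) and Tgfbr2 (0.65 ± 0.09), and lower in 6, among them Tgfbr3 (-2.40 ± 0.24), Ltbp4 (-2.49 ± 0.15) and Smad7 (-2.30 ± 0.18), against 33.6% higher and 28.9% lower among all genes. T cells were higher in 2, Smad7 (1.39 ± 0.15) and Tgfb1 (0.37 ± 0.16), and lower in 7, against 33.3% and 30.5%. The Tgfb1 call in T cells (adjusted p = 0.0467) was lost under 6 alternatives, 4 of which each left out 1 library (control replicate 1 or disease replicate 3, 4 or 5), and the difference was 0.16 to 0.34 over these 6. B cells were higher in 2, Tgfb1 (1.09 ± 0.17) and Smad7 (0.92 ± 0.18), and lower in 5, against 19.8% and 27.4%, with 3 lower when either control library was left out. Tgfbr2 was not called in T cells (0.09 ± 0.10) or B cells (0.03 ± 0.12). Scaling by plain library totals in place of trimmed means moved the median of all genes from 0.00 to 0.39 in endothelial cells, from 0.04 to 0.26 in fibroblasts, from -0.01 to -0.16 in macrophages, from -0.05 to -0.27 in T cells and from -0.34 to -0.59 in B cells. With it the share of calls that were lower went from 48.6% to 28.2% in endothelial cells, from 46.4% to 35.4% in fibroblasts, from 46.2% to 56.2% in macrophages, from 47.8% to 59.2% in T cells and from 58.0% to 71.5% in B cells. Under that scaling the lower Tgfb1 of endothelial cells was no longer called (-0.18, adjusted p = 0.322, edgeR), and Smad7, not called as tested (0.25), was called higher there (0.64), as it was without control replicate 2 (0.37) and with every gene tested (0.30).

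Droplets can hold RNA released by other cells, so the fibroblast genes were set beside summed collagen transcripts (Col1a1, Col1a2 and Col3a1), which immune and endothelial cells are not known to make in quantity. In endothelial cells collagen was at 1.04% to 1.81% of the fibroblast level, whereas Ltbp4 was at 39.6% to 46.6%, Ltbp1 at 22.6% to 41.1%, Tgfb2 at 20.7% to 29.9% and Ltbp3 at 9.04% to 11.6%, each above collagen in all 5 libraries. In T cells Ltbp4 was at 0.837% to 1.69% of the fibroblast level and collagen at 0.582% to 2.32%, with Ltbp4 the higher in 3 of 5 libraries. Tgfbr3 (2.74% to 8.84%) and Ltbp1 (1.76% to 3.28%) were above collagen in all 5 T cell libraries, and Tgfb3, Ltbp3 and Tgfb2 in 4, 2 and 2 of them. In B cells, with collagen at 0.942% to 2.07%, Tgfb2 was above it in 2 of 5 libraries and each of the other 5 genes in 4 of 5. In macrophages all 6 fibroblast genes compared, among them Tgfb3 (2.86% to 6.71%) and Ltbp3 (1.88% to 4.67%), were above collagen (0.533% to 1.43%) in all 5 libraries, with 138 UMIs of Tgfb3 and 57 of Ltbp3. Cells were also thinned to 1000 UMIs each, and those below that were left out (404 control and 878 disease cells of the 5 tested lineages). A Ltbp4 UMI was then found in 63.5% ± 2.57 of control fibroblasts (SD, n = 2 libraries), 34.4% ± 1.42 of control endothelial cells and 1.29% ± 0.34 of control T cells. Without thinning, and over all cells, the 3 shares were 96.0%, 64.1% and 5.20%.

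Inside the lineages the genes varied between smaller populations, which were set by marker UMIs of other genes and are given as levels with no test. Among endothelial cells, 526 arterial cells (89 to 124 a library) held Tgfb2 at 117, 104, 62.1, 144 and 73.3 CPM, while 11316 capillary cells held it at 11.1, 11.4, 5.39, 8.45 and 5.42 CPM. The ranges did not overlap, and the mean was 11.99 times as high in arterial cells. Arterial cells also had more Ltbp4, at 678 to 841 CPM against 379 to 477 CPM, in all 5 libraries and without overlap. The 120 endocardial cells (14 to 32 a library), which line the heart chambers, had more of the latency genes than capillary cells. Their Ltbp1 was at 123, 127, 217, 112 and 136 CPM, where capillary cells had 17.4 to 24.4 CPM. Their Ltbp3 was at 103, 101, 93.2, 41.8 and 150.5 CPM, where capillary cells had 3.32 to 5.91 CPM. The 26 venous cells held 10 UMIs of Ltbp3 (92.5 CPM pooled) and 0 of Ltbp1. Endocardial Tgfbr2 (143 to 184 CPM) and Tgfbr3 (57.3 to 114 CPM) were likewise above the capillary levels of 39.3 to 74.6 and 29.0 to 41.9 CPM in every library.

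Among fibroblasts, 147 cells that carried Postn and other markers of matrix-producing cells had Tgfb1 at 96.5, 206, 74.2, 176 and 131 CPM, against 26.4 to 56.5 CPM in 937 adventitial cells, with no overlap. Tgfb3 in them was at 151, 91.4, 96.1, 132 and 149 CPM, again above the adventitial range of 50.4 to 68.8 CPM. They numbered 27, 9, 39, 15 and 57 cells per library, so 1 UMI weighs heavily in these values. Adventitial cells had more Tgfbr2 than the fibroblasts of neither set in all 5 libraries, with a mean ratio of 1.34, and less Ltbp3, with a mean ratio of 0.829. Among macrophages, cells of the resident set had more Tgfbr2 in every library than cells assigned to neither the resident nor the monocyte set. Unassigned cells can still carry some markers of either set. The Tgfbr2 levels were 194, 183, 127, 121 and 115 CPM in resident cells and 127, 127, 34.6, 85.7 and 59.8 CPM in the unassigned cells. For Tgfbr1 the order was the other way round in every library, at 63.4, 57.1, 49.1, 40.1 and 45.9 CPM in resident cells and 126, 144, 111, 76.9 and 56.8 CPM in the others. Monocytes (11 to 73 cells a library) had less Tgfbr2 than resident cells in every library, at 30.6 to 63.1 CPM.

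**Figure D2:**
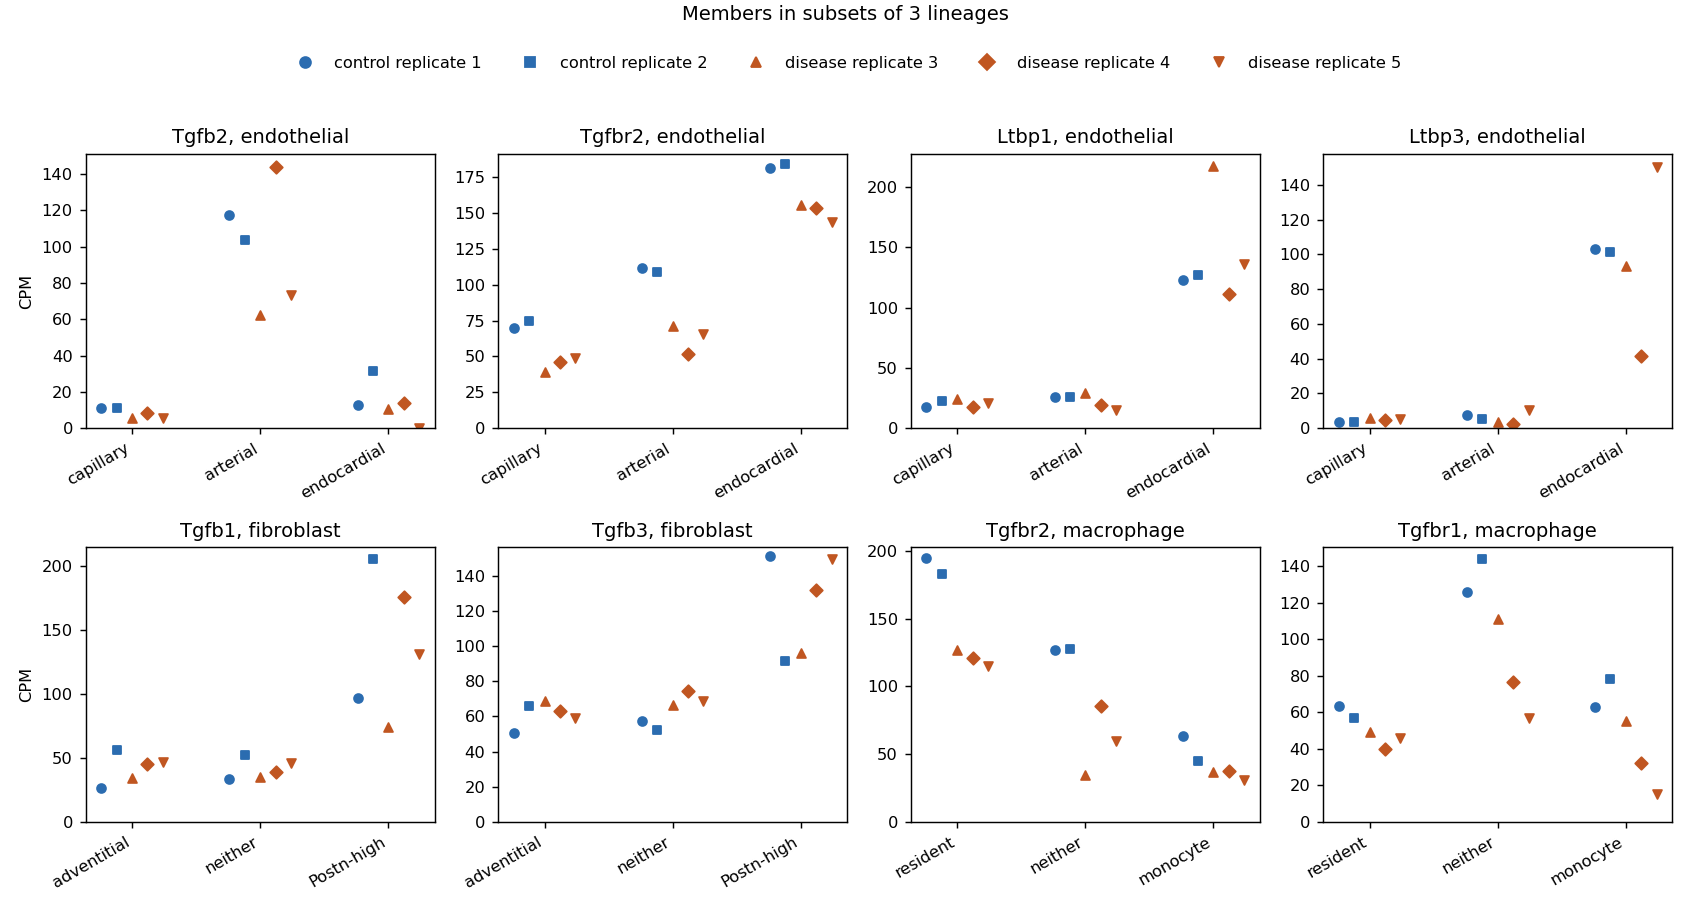
Level in CPM, 1 symbol per library, of selected TGF-beta genes in subsets of endothelial cells, fibroblasts and macrophages set by marker genes. Among the subsets shown, Tgfb2 stands out in arterial cells, Ltbp1 and Ltbp3 in endocardial cells, and Tgfb1 and Tgfb3 in Postn-high fibroblasts. Tgfbr2 and Tgfbr1 run in opposite directions between resident macrophages and the macrophages of neither set.

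The central question of the design is what differs between diseased and control hearts, and 2 of the 10 genes were called. Tgfbr2 was lower in the disease libraries in fibroblasts and endothelial cells, and Tgfbr1 was lower in endothelial cells. Both Tgfbr2 calls were lost with a per-library trend of expression with GC content removed (adjusted p = 0.431 and 0.136, edgeR), and the Tgfbr1 call was not. No gene of the 10 was called higher in any lineage (edgeR's quasi-likelihood test, adjusted p under 0.05). Of all genes 0.344% were called higher in endothelial cells, 0.413% in fibroblasts, 0.106% in macrophages, 0.0100% in T cells, 0.366% in B cells and 0.0434% over all cells. In endothelial cells 2 of 10 were called, both lower, where 12.1% of all 12789 genes tested were called and 11.8% were called lower. In fibroblasts 1 of 10 was called, also lower, where 12.8% of 13572 were called and 12.4% lower, so the members' share was close to that of all genes. None was called among 9 tested in macrophages, 6 in T cells, 5 in B cells or 10 in the sum over all cells, where 6.74%, 5.44%, 8.19% and 6.47% of genes were called (6.63%, 5.43%, 7.83% and 6.43% lower). At an unadjusted p under 0.05 (edgeR) the numbers in these 4 fits were 1, 3, 3 and 3. Of all genes tested, 2065 of 11281 passed that threshold in macrophages and 1554 of 9988 in T cells. In B cells 1269 of 5468 passed it, and over all cells 2579 of 16125. DESeq2 called none of the 10 in the 4 fits. The absence of a call does not show that a gene did not differ. The calls over all genes were nearly all downward (97.2% in endothelial cells and 96.8% in fibroblasts), and that split was 86.0% in endothelial cells with a GC trend removed and 86.4% in fibroblasts with DESeq2. The median log2 fold change of the 10 genes was -0.30 in endothelial cells and -0.18 in fibroblasts, and that of all genes tested was 0.00 and -0.01.

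Tgfbr2 was at 175, 166, 102, 120.5 and 109.7 CPM in fibroblasts. The 3 disease libraries lay together below both controls. The log2 fold change was -0.67 ± 0.12 (SE, adjusted p = 0.0186, edgeR), a level 37.1% lower. In endothelial cells it was at 78.2, 84.2, 45.5, 53.6 and 54.8 CPM, again without overlap. There the log2 fold change was -0.74 ± 0.11 (adjusted p = 0.00915, edgeR), a level 40.0% lower. Summed fibroblast markers in those endothelial cells were at 1215 and 625 CPM in the controls and 944, 600 and 746 CPM in disease, which overlapped. The same order held in macrophages (169, 169, 107, 100.2 and 94.9 CPM), T cells (125, 156, 72.7, 67.7 and 60.8 CPM) and B cells (136, 145, 35.4, 76.0 and 50.5 CPM). Their log2 fold changes were -0.65 ± 0.17, -1.07 ± 0.29 and -1.24 ± 0.31, with adjusted p of 0.0900, 0.0851 and 0.0547 (edgeR).

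Disease levels were thus below both controls in all 5 lineages, and Tgfbr2 was the only one of 5 genes tested in all of them with that order. Of 5174 genes tested in every lineage, 15.2% had it. The order also held in the 68 lymphatic endothelial cells, 150 Schwann cells and 129 natural killer cells. It did not hold in mural, mesothelial or dendritic cells or in neutrophils. It held within capillary cells (70.0, 74.6, 39.3, 46.1 and 48.9 CPM), resident macrophages and adventitial fibroblasts (223, 203, 149.7, 155 and 139 CPM) as well. With cells thinned to 1000 UMIs and those below that left out, a Tgfbr2 UMI was found in 16.2% ± 1.10 of control and 10.3% ± 0.96 of disease fibroblasts. In T cells the shares were 13.4% ± 0.38 and 6.42% ± 0.49 (SD, n = 2 and 3 libraries). Unthinned and over all cells, the shares were 58.8% and 43.1% in fibroblasts and 47.6% and 24.8% in T cells.

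The first 300 nucleotides of Tgfbr2 are among the richest in G and C (73.2%, above 96.8% of genes). The value of a gene is the median over its annotated transcripts, protein-coding ones where it has any. With a per-library GC trend removed, the log2 fold change of Tgfbr2 was -0.36 in endothelial cells (adjusted p = 0.136) and -0.23 in fibroblasts (adjusted p = 0.431), so both calls were lost. In macrophages, T cells and B cells it was -0.27, -0.35 and -0.52. Leaving out control replicate 2 gave an adjusted p of 0.0798 in endothelial cells, and leaving out control replicate 1, control replicate 2 or disease replicate 5 gave 0.115, 0.0848 and 0.0935 in fibroblasts. With plain library totals Tgfbr2 was called in macrophages (adjusted p = 0.0400), B cells (0.0402) and all cells (0.0471), and without disease replicate 4 in B cells (0.0210) and all cells (0.0338, all edgeR). With every gene tested, Tgfb1, Tgfbr1 and Tgfbr2 were called lower in B cells (adjusted p = 3.24e-06, 0.00736 and 0.00242) and Smad7 in T cells (adjusted p = 0.00368, edgeR).

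Tgfbr1 was at 20.5, 22.1, 14.0, 14.3 and 14.3 CPM in endothelial cells. The 3 disease libraries differed among themselves by less than 1 CPM and lay below both controls. The log2 fold change was -0.66 ± 0.10 (adjusted p = 0.0123, edgeR), a level 36.6% lower, and it was -0.69 with the GC trend removed (adjusted p = 0.0126). The start of Tgfbr1 is 55.7% G and C by the median over its transcripts, above 58.8% of genes. Its 2 annotated start sites lie behind windows of 74.8% and 52.8% G and C, and which start these libraries read was not tested. The adjusted p was 0.0872 without control replicate 2 and 0.0825 without disease replicate 5. In fibroblasts Tgfbr1 was at 54.7, 54.8, 48.8, 36.7 and 34.0 CPM (log2 fold change -0.50 ± 0.18, adjusted p = 0.139), and leaving out disease replicate 3 brought the adjusted p to 0.0222. In macrophages it was at 85.8, 72.1, 60.9, 57.9 and 48.6 CPM (-0.41 ± 0.20, adjusted p = 0.345), and in B cells at 48.3, 63.1, 28.7, 19.5 and 8.71 CPM (-1.49 ± 0.44, adjusted p = 0.0916, edgeR). In T cells the groups overlapped, at 20.2, 52.8, 29.7, 8.31 and 8.83 CPM.

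The promoters of the 2 receptors are shown because these are the genes called between the groups, although no peak or binding data bear on them here. Tgfbr2 lies on the minus strand (chr9:116175364-116175613) and Tgfbr1 on the plus strand (chr4:47352972-47353221, the first of 2 windows in the table), with capitals as above.
Tgfbr2: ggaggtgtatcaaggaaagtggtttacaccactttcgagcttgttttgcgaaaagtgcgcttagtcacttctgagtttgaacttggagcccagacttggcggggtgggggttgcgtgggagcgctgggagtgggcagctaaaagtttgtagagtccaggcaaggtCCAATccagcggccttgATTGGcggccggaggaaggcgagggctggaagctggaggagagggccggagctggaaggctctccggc
Tgfbr1: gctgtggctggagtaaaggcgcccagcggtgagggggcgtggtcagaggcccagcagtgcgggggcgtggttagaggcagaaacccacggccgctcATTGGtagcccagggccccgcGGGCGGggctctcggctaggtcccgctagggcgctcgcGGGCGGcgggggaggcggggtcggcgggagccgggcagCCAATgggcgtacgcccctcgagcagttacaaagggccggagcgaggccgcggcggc
The Tgfbr2 window (58.4% G and C) held 2 CCAAT boxes starting 85 and 68 bases before the start site and none of the other motifs. The Tgfbr1 window (74.8% G and C) held 2 CCAAT boxes and 2 GC boxes. Both therefore have a CCAAT box in each orientation, a motif found in 33.8% of all windows.

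**Figure D3:**
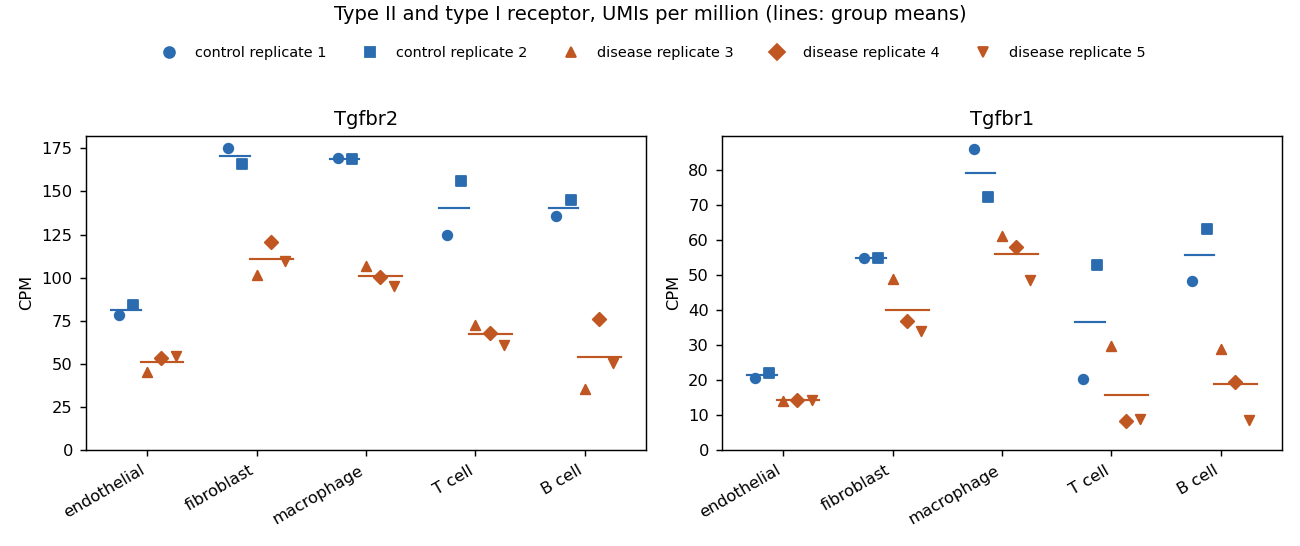
Tgfbr2 (left) and Tgfbr1 (right) in CPM in 5 lineages, 1 symbol per library, with a line at each group's mean. For Tgfbr2 the 3 disease libraries lie below both controls in every lineage, and for Tgfbr1 they do so in every lineage but T cells.

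Tgfbr3, the co-receptor, was at 164, 190.0, 154, 136 and 137 CPM in fibroblasts and at 44.0, 39.7, 37.8, 30.5 and 33.8 CPM in endothelial cells. Disease was below control in both without overlap, with log2 fold changes of -0.36 ± 0.12 (adjusted p = 0.123) and -0.37 ± 0.14 (adjusted p = 0.176, edgeR), so neither was called. With the GC trend removed they were -0.18 and -0.20. Counting all of the genes, 4 of 10 were lower in disease without overlap in endothelial cells, where 23.5% of all genes were, and 3 of 10 in fibroblasts, where 25.1% were. The numbers were 2 of 9 in macrophages (22.8%), 2 of 6 in T cells (20.0%), 3 of 5 in B cells (25.7%) and 5 of 10 over all cells (21.4%). In the sum over all cells, fewer cells of a type and less RNA per cell cannot be told apart.

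Among the ligands, Tgfb1 was at 91.0, 158, 81.4, 76.3 and 81.2 CPM in endothelial cells, 154.5, 261, 156, 117 and 128 CPM in macrophages and 138, 475, 99.5, 115 and 105 CPM in B cells. Control replicate 2 was the highest library in all 3. The log2 fold changes were -0.72 ± 0.23, -0.53 ± 0.23 and -1.44 ± 0.45 (adjusted p = 0.129, 0.301 and 0.108, edgeR). Without control replicate 1 the endothelial value was -1.06 (adjusted p = 0.0126) and that of B cells -2.04 (adjusted p = 0.0122). Without control replicate 2 the values were -0.27 in endothelial cells, -0.18 in macrophages and -0.25 in B cells. With the GC trend removed they were -0.29, -0.10 and -0.62, so either change made the Tgfb1 difference smaller in all 3 lineages. In T cells Tgfb1 was at 151, 137, 59.4, 90.0 and 113 CPM (-0.72 ± 0.29, adjusted p = 0.279), and with the GC trend removed the difference was 0.00. In fibroblasts the groups overlapped, at 33.6, 54.4, 36.3, 41.0 and 49.6 CPM. The start of Tgfb1 is 72.3% G and C, above 96.0% of genes.

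Tgfb3 had a higher disease mean in fibroblasts and endothelial cells. In fibroblasts it was at 58.0, 54.1, 67.5, 74.0 and 70.7 CPM, with no overlap and a log2 fold change of 0.29 ± 0.11, which was not called (adjusted p = 0.153, edgeR) and was 0.18 with the GC trend removed. In endothelial cells it was at 12.02, 12.4, 13.6, 12.8 and 18.6 CPM (0.23 ± 0.19, adjusted p = 0.493), a difference of 0.14 with the GC trend removed. Among the 10 genes, every disease library was above both controls for Tgfb3 and Ltbp3 in endothelial cells and for Tgfb3 in fibroblasts, 2 of 10 where 26.9% of all genes had that order and 1 of 10 where 25.2% had it. Tgfb2 in fibroblasts was at 72.0, 67.5, 55.5, 68.4 and 55.8 CPM, which overlapped (-0.27 ± 0.13, adjusted p = 0.260), and without the GC trend its difference was -0.01. For the latency genes in fibroblasts the means of Ltbp4 were 1090 ± 77.9 CPM in control and 1054 ± 99.4 CPM in disease, those of Ltbp1 78.2 ± 4.88 and 76.6 ± 8.36 CPM, and those of Ltbp3 66.5 ± 1.30 and 76.8 ± 9.05 CPM (SD, n = 2 and 3). By a normal approximation, the 95% intervals of the log2 fold changes of Ltbp4 were -0.34 to 0.16 in fibroblasts and -0.20 to 0.26 in endothelial cells. With 5 libraries such intervals are narrower than edgeR's quasi-likelihood test implies, so they do not show that Ltbp4 was unchanged.

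Smad7 depended on a single library. Control replicate 2 was the highest in all 5 lineages, and in T cells it was at 374 CPM where control replicate 1 (76.8 CPM) lay within the disease range of 74.3 to 85.0 CPM. The log2 fold change in T cells was -1.47 ± 0.59 (adjusted p = 0.282, edgeR), -2.26 without control replicate 1 (adjusted p = 0.0177) and 0.14 without control replicate 2. In endothelial cells (55.3, 123, 77.8, 86.0 and 76.7 CPM) it was -0.23 ± 0.32, -0.70 without control replicate 1 (adjusted p = 0.0405) and 0.46 without control replicate 2. Fibroblasts went from -0.27 to 0.33, macrophages from -0.14 to 0.52 and B cells from -0.68 to 1.16 in the same way, so the direction of Smad7 turned without that library. With all libraries kept and the GC trend removed it also turned in endothelial cells (0.24), fibroblasts (0.27), macrophages (0.34) and B cells (0.17). In T cells it did not (-0.66). Control replicate 2 held 96 T cells. A set of 10 immediate early and heat shock genes was chosen after the values were seen (Fos, Fosb, Jun, Egr1, Ier2, Atf3, Btg2, Zfp36, Hspa1a and Hspa1b). Its summed level in those T cells was 2382 CPM against 1888 to 2282 CPM in the other libraries. That library was also the highest in macrophages (15261 CPM against 7408 to 11588 CPM) and fibroblasts (15559 CPM against 12703 to 14612 CPM). In endothelial cells (9280 CPM against 7996 to 10637 CPM) and B cells (2697 CPM against 2489 to 3342 CPM) that library lay within the range of the others. Whether handling or cell state in that library bears on Tgfb1 and Smad7 was not tested.

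**Figure D4:**
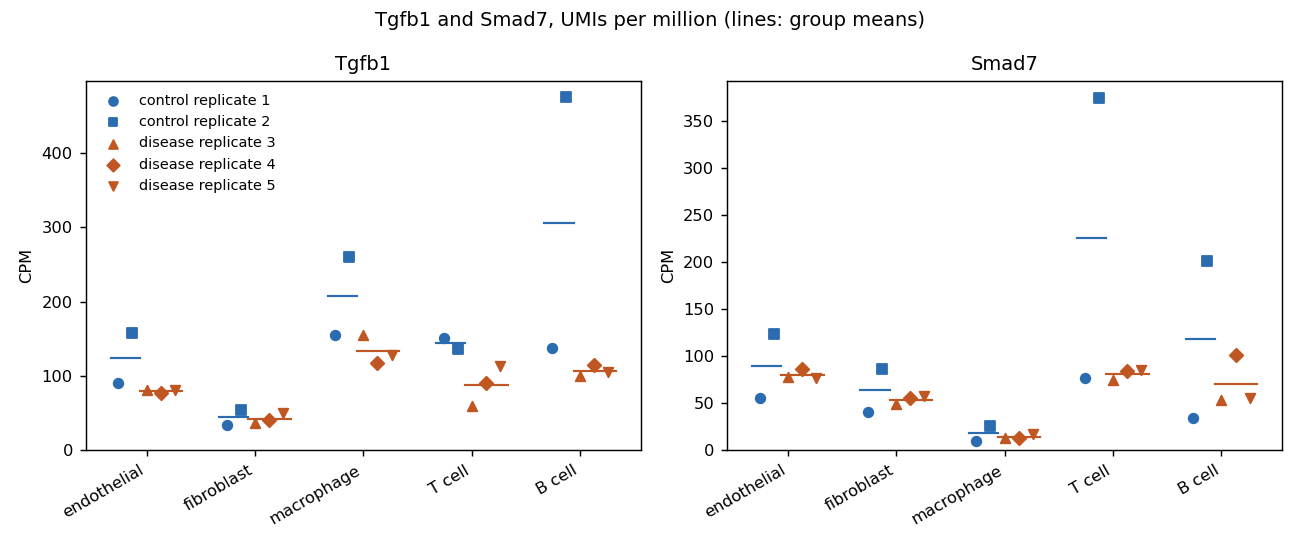
Tgfb1 (left) and Smad7 (right) in CPM in 5 lineages, 1 symbol per library, with a line at each group's mean. Control replicate 2 (blue squares) is the highest library for Smad7 in every lineage and for Tgfb1 in every lineage but T cells, whereas control replicate 1 lies near the disease libraries in most panels.

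**Figure D5:**
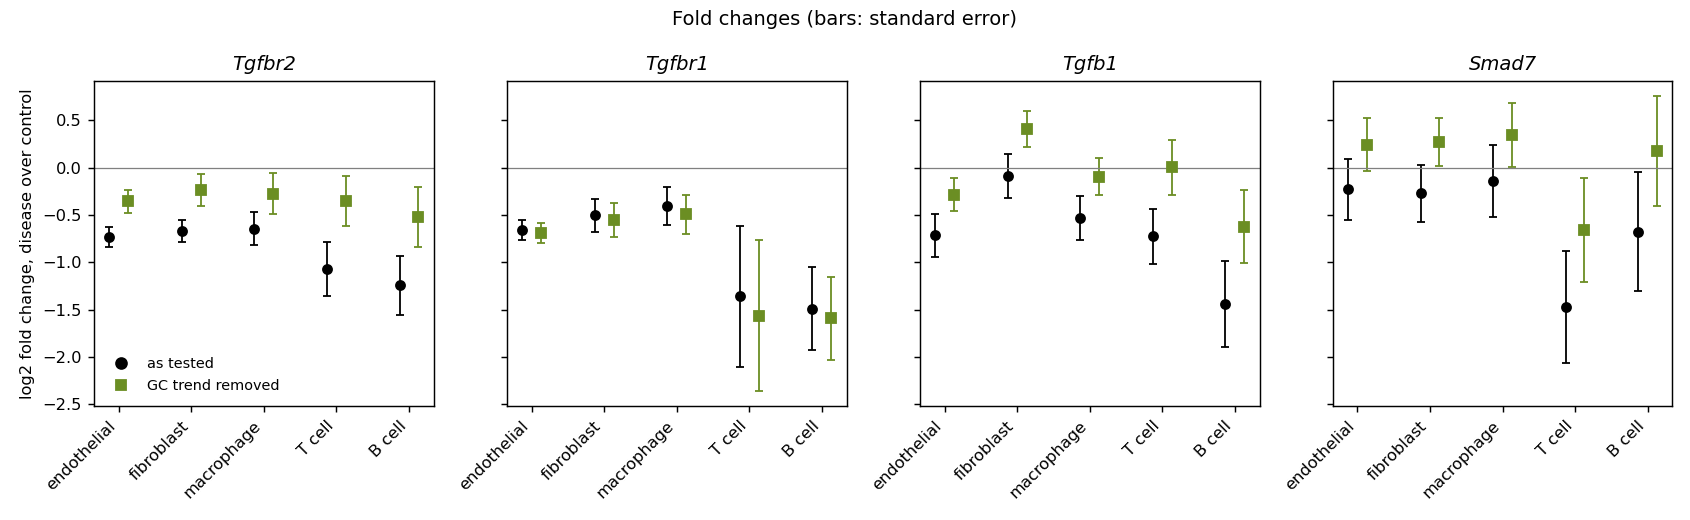
Log2 fold change of disease over control for 4 genes in 5 lineages, with bars of 1 standard error, as tested (black) and with a per-library trend of expression with GC content removed (green). Tgfbr1 stays in place, Tgfbr2 moves toward 0 from -0.74 to -0.36 in endothelial cells and from -0.67 to -0.23 in fibroblasts, and Smad7 crosses 0 in every lineage but T cells, and Tgfb1 crosses it in fibroblasts and reaches it in T cells (from -0.72 to 0.00352).

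Whether the effect of disease differed between lineages was tested as an interaction over the 6 pairs of endothelial cells, fibroblasts, macrophages and T cells. None of the 10 genes was called in any pair (edgeR, Benjamini-Hochberg adjustment over 15254 genes), and 3 tests, all of Smad7 in T cells against another lineage, had an unadjusted p under 0.05. No other tool was run on the interaction. Few genes were called at all, between 0.00656% (fibroblast minus endothelial) and 0.0721% (macrophage minus fibroblast), with 0.0590% for both T cell minus endothelial and macrophage minus endothelial, 0.0656% for T cell minus fibroblast and 0.0328% for T cell minus macrophage. For Tgfbr2 the differences between lineages ran from -0.25 to 0.11. The 95% interval of the widest, T cell minus macrophage, was -0.70 to 0.20 by the same normal approximation, which is too narrow. For Smad7 the T cell effect was lower by 0.76 than the endothelial one (unadjusted p = 0.0162, adjusted p = 0.557). On leaving out 1 library that difference of effects ran from -1.26 (without control replicate 1) to -0.25 (without control replicate 2).

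Other genes of the pathway were read from 4 lists chosen with earlier results of these data known. Of the receptor and co-receptor list 3 of 11 tested genes were called lower in endothelial cells and 3 of 11 in fibroblasts, and none higher, where 11.8% and 12.4% of all genes were called lower. Bambi, a pseudoreceptor that lacks a kinase domain and blocks TGF-beta signalling, was at 60.4, 51.9, 13.9, 8.72 and 11.7 CPM in endothelial cells and at 86.1, 84.6, 23.7, 14.4 and 16.1 CPM in fibroblasts, far from overlapping. Its log2 fold changes were -2.36 ± 0.21 (adjusted p = 0.00167) and -2.29 ± 0.23 (adjusted p = 0.00248, edgeR), and they were -1.93 and -1.79 with the GC trend removed, still called. It was also lower in macrophages (-2.03), B cells (-2.84) and all cells (-2.35), and these 3 calls were lost when either control library was left out. The B cell call was also lost without disease replicate 4 or 5 and with the GC trend removed (-2.11, adjusted p = 0.114), and the call over all cells without disease replicate 5. Acvrl1, the endothelial type I receptor for BMP9, was at 188, 175, 117, 108 and 114 CPM in endothelial cells (-0.75 ± 0.09, adjusted p = 0.00540). In fibroblasts it was at 131, 111, 66.8, 69.6 and 79.4 CPM (-0.80 ± 0.14, adjusted p = 0.0203), a call lost with the GC trend removed (adjusted p = 0.0838) and without control replicate 1, control replicate 2 or disease replicate 5 (adjusted p = 0.0521 to 0.115). Acvr2a, an activin type II receptor, was lower in endothelial cells (-0.49 ± 0.11, adjusted p = 0.0422) and fibroblasts (-0.71 ± 0.13, adjusted p = 0.0195). Both calls were lost with the GC trend removed (adjusted p = 0.354 and 0.183) and without control replicate 1, control replicate 2 or disease replicate 5, and the endothelial one also without disease replicate 3, with plain library totals (adjusted p = 0.0803), with every gene tested (0.0525) and with cells of up to 25% mitochondrial UMIs (0.0585, all edgeR).

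Of the latency and activation list 1 of 13 genes was called lower in endothelial cells and 1 of 10 in macrophages, and in fibroblasts 1 of 15 was lower and 1 higher. Of all genes 11.8%, 6.63% and 12.4% were called lower in these 3 lineages, and 0.413% were called higher in fibroblasts. The gene lower in each was Itgb1, the beta subunit shared by many matrix-binding integrins, at 565, 618, 287, 271 and 301 CPM in endothelial cells (-1.12 ± 0.10, adjusted p = 0.00149) and 439, 438, 188, 213 and 204 CPM in fibroblasts (-1.17 ± 0.10, adjusted p = 0.00179). Both kept their call with the GC trend removed. In macrophages the log2 fold change was -1.09, a call lost without control replicate 1, control replicate 2 or disease replicate 5 (adjusted p = 0.0997 to 0.147). The gene higher in fibroblasts was Ltbp2, a relative of the latency genes that does not bind the latent ligand, at 7.93, 9.21, 20.5, 14.0 and 24.8 CPM (1.17 ± 0.27, adjusted p = 0.0480). That call was lost without either control library, disease replicate 3 or disease replicate 5 (adjusted p = 0.0938 to 0.221), and with doublets kept (adjusted p = 0.0577).

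Of the signal transduction list none of 21 genes was called in endothelial cells and none of 20 in fibroblasts, where 12.1% and 12.8% of all genes were called. At an unadjusted p under 0.05 (edgeR) the list had 5 and 6, and all genes had 3128 of 12789 and 3781 of 13572. In T cells, where 5.43% of all genes were called lower, 1 of 17 was, Tgif2, a corepressor, at 17.3, 79.2, 6.61, 4.97 and 4.58 CPM, where control replicate 2 again stood out, and the call was lost without it or without any of the 3 disease libraries (adjusted p = 0.0874 to 0.214). It was also lost with the GC trend removed (adjusted p = 0.137), with a stricter lineage gate (0.0764) and with cells of up to 25% mitochondrial UMIs (0.0576, all edgeR). Of the target list 1 of 25 genes was called in fibroblasts and 1 of 25 in endothelial cells, both higher, where 0.413% and 0.344% of all genes were called higher. Postn, which encodes the matrix protein periostin and was also a subset marker, was at 99.7, 72.7, 213, 207 and 407 CPM in fibroblasts (1.63 ± 0.38, adjusted p = 0.0478), a call lost with the GC trend removed (adjusted p = 0.0614), with doublets kept (adjusted p = 0.05003) and without either control library or disease replicate 3 (adjusted p = 0.0519 to 0.303). Bhlhe40, a transcription factor, was at 66.1, 57.2, 103, 118 and 96.6 CPM in endothelial cells (0.71 ± 0.13, adjusted p = 0.0215), a call lost without either control library or disease replicate 3 or 5 (adjusted p = 0.0515 to 0.158). Tagln was called lower in T cells (1 of 20) on 1 library, with 60.4 CPM in control replicate 1 and 2.87 to 7.20 CPM elsewhere, and its log2 fold change was -3.53 but -1.14 without that library and -0.23 with a stricter lineage gate (adjusted p = 0.0287, 0.508 and 0.902, edgeR). The call was also lost without any of the 3 disease libraries (adjusted p = 0.0696 to 0.177). The collagen genes Col1a1 and Col3a1 were among those not called in any fit.

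Over the 25 sums of 5 lineages in 5 libraries, which share libraries and depth, the expression patterns most like each ligand and receptor were sought among 10810 genes by Pearson's r of log2(CPM + 1), as a description. Tgfb2 was closest to Ube2e2 (r = 0.98), Phldb1 and Ace (both r = 0.97), and Tgfb3 to Fkbp14, Aspn (both r = 0.95) and Fbln2 (r = 0.94). Tgfbr3 was closest to Ces2g (r = 0.96), Ltbp1 and Zfp521 (both r = 0.95), so a latency gene was among its nearest patterns. Tgfb1 was closest to Lactb and Foxn3 (both r = 0.91), Tgfbr2 to Ern1 (r = 0.89) and Sqstm1 (r = 0.88), and Tgfbr1 to Il6ra (r = 0.86).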

How the data were processed

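Droplet 5′ single-cell RNA libraries of sorted cells from pooled mouse hearts were used: 2 control and 3 disease libraries. Values are unnormalised UMI counts, as deposited, and per the file headers they came from Cell Ranger 3.1.0. The genotype and sort labels carry running numbers, so groups were taken from titles and the series' design text. Barcodes under 500 UMIs or 200 genes (134) or over 10% mitochondrial UMIs (8873) and 1338 doublets (Scrublet in scanpy 1.11.5) were dropped. A cell was gated by at least 3 detected markers and a lead of 10 percentage points over the next lineage. Counts were summed per library and lineage and tested with edgeR 4.0.16 (quasi-likelihood, trimmed-mean scaling, expression filter, Benjamini-Hochberg over all genes, threshold 0.05), after the scripts were tested on simulated data. DESeq2 1.42.0, plain library totals, no filter, a GC trend over the first 300 nucleotides removed, other gates and cell filters, and leaving out each library were alternatives. With 2 against 3 libraries no permutation test of a single gene could pass the threshold. Other genes are named where a pathway list's gene was called, or for likeness of pattern, from the 3 highest correlations, of which some are not reported here. The genes and lists were chosen with earlier results of these data known. Intervals of counts cover counting error only.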

Additional observations from a re-analysis of the deposited data

How the results depend on the processing

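No paired analysis was possible because the control and disease libraries share no replicate number. Precision was limited by 2 control libraries and by few T and B cells in some libraries. Of genes called between the groups, leaving out 1 library gave 771 to 1537 in endothelial cells (1547 with all), 794 to 1821 in fibroblasts (1743), 217 to 996 in macrophages (760), 1 to 412 in T cells (543), 49 to 447 in B cells (448) and 123 to 1234 over all cells (1044). The lowest numbers came without control replicate 2 in endothelial cells, fibroblasts and B cells and without disease replicate 5 in the other 3 fits. Testing every gene with a count gave 1181 in macrophages, 1110 in T cells and 1014 in B cells. Removing the GC trend gave 287 in T cells, 282 in B cells and 664 over all cells, and DESeq2 gave 1715 over all cells. Of the 10 TGF-beta genes, leaving out 1 library gave 0 to 4 calls in endothelial cells, 0 to 2 in fibroblasts, 0 in macrophages and 0 to 1 in T cells, B cells and all cells. Removing the GC trend left 1 call in endothelial cells and 0 in fibroblasts, plain totals gave 1 each in macrophages, B cells and all cells, and testing every gene gave 1 in T cells and 3 in B cells. The genes higher in T cells than in the other lineages were 1 under plain totals and with doublets kept and 1 to 2 on leaving out a library, and those lower in B cells were 3 to 5. The sign of the disease effect turned for Smad7 with the GC trend removed in endothelial cells (0.24), fibroblasts (0.27), macrophages (0.34) and B cells (0.17). Without control replicate 2 it turned for Smad7 in endothelial cells (0.46), fibroblasts (0.33), macrophages (0.52), T cells (0.14) and B cells (1.16), where the lowest values on leaving out a library were -0.70, -0.70, -0.67, -2.26 and -1.39. Tgfb1 turned in fibroblasts (0.41 with the GC trend removed, -0.38 to 0.26 on leaving out a library, the highest without control replicate 2) and in T cells (0.00352 with the GC trend removed). Between lineages, Tgfbr2 turned in T cells under plain totals (-0.12), without disease replicate 3 (-0.0542, up to 0.104 on leaving out another library) and with doublets kept (-0.00375). In B cells it turned under plain totals (-0.21), with every gene (-0.0387) and without control replicate 1 (-0.00684) or 2 (-0.0710, up to 0.149 on leaving out another library). Tgfb2 turned in macrophages without disease replicate 4 (0.0235, down to -0.79 on leaving out another library). The cause of these changes was not tested.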
